A study of Mus musculus with 12 samples.

Results

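The proteasome subunit genes are described here across 4 groups of C18-4 cells, an immortalised mouse line with a spermatogonial stem cell origin, from a study that used viruses to overexpress or inhibit the long noncoding RNA lncRNA8276. The genes were chosen by symbol, as every entry of the deposited table whose symbol starts with Psm, a letter from a to g and a number. The rule found 49 of the 17576 genes in the table, and 48 of them passed the filter on low values among 11360 genes that did. The gene that failed was Psmb11, the thymus-specific catalytic subunit, which stayed at or below 0.03 FPKM in all 12 libraries. Psmc3ip also matched by its symbol although it encodes a recombination factor and no part of the proteasome, and it is counted with the members but described apart. Psma8, the testis-specific alpha subunit, was not analysed here.

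The groups were 8276OV, cells given a virus that overexpresses lncRNA8276, 5NC, the group that the design text lists beside it, 8276KD, cells given a virus that inhibits lncRNA8276, and 3NC, the group listed beside that. Each group had 3 libraries of total RNA and the labels name the strain as IRC mouse. The labels do not spell out 5NC or 3NC, do not say what those cells received, and do not say whether the 3 libraries of each group stem from different cultures. The p-values therefore reflect the scatter among libraries alone, which could be technical in origin. The level of lncRNA8276 was not analysed here, so neither overexpression nor inhibition was checked by it.

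The 26S proteasome degrades proteins that carry ubiquitin chains. Its core is a barrel of stacked rings in which alpha subunits (Psma genes) gate the entrance and beta subunits (Psmb genes) cut the substrate. The cap on the barrel has a base, with a ring of ATPases (Psmc genes) that unfold the substrate, and a lid (most Psmd genes) that removes ubiquitin. Interferon and immune cells replace the cutting subunits Psmb5, Psmb6 and Psmb7 with Psmb8, Psmb9 and Psmb10, which gives the immunoproteasome, known for making peptides for antigen presentation. Male germ cells rely on proteasome activity during meiosis and sperm formation, with a testis-specific alpha subunit and the activator Psme4 known from knockout mice.

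Depth implied by the steps between low values ranged from about 12000000 to 13100000 fragments per library, and Pearson's r of log2(FPKM + 1) ranged from 0.9933 to 0.9979 within groups and from 0.9509 to 0.9878 between them. Of 12 spermatogonial markers, 10 stayed below 1 FPKM in every library and the highest value was 7.89 FPKM for Etv5. Of 7 Sertoli cell markers in the table, Sox9, Amh and Cldn11 stayed below 1 FPKM. The other 4 reached it, with the highest value 62.8 FPKM for Wt1. Of 7 fibroblast and myoid markers, 5 reached 1 FPKM, with the highest value 383 FPKM for Col1a1. The remaining 2, Col1a2 (at most 0.58 FPKM) and Myh11, did not. Fibroblast and myoid markers summed to between 251 and 325 FPKM in 8276OV and between 407 and 408 FPKM in 5NC. The sums were 289 to 364 FPKM in 8276KD and 264.7 to 276.5 FPKM in 3NC. Col1a1 alone held most of them, at 237 to 307 FPKM in 8276OV and 378 to 383 FPKM in 5NC. The libraries also differed in how the level depended on GC content. The slope of log2 level on transcript GC, relative to the mean of all libraries, was -0.462, -0.237 and -0.355 per 10 percentage points in 8276OV, against 0.198, 0.148 and 0.184 in 5NC. It was -0.0402, 0.184 and -0.00192 in 8276KD, so the second library of that group stood apart, against 0.127, 0.103 and 0.151 in 3NC. The part of this trend in the results below was not tested. Values after its removal (GC correction) are given beside many of these results, but not beside all.

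The constitutive subunits were abundant in all 4 groups. Levels below are FPKM, which are scaled by transcript length and can be compared between genes. Averaged over the 12 libraries, the alpha ring genes lay between 149 FPKM for Psma1 and 332 FPKM for Psma7, and the constitutive beta genes between 145 FPKM for Psmb2 and 328 FPKM for Psmb3. The base ATPase genes spanned 108 to 237 FPKM and the lid genes 73.3 to 178 FPKM. The immunoproteasome genes were far lower, at 1.83 FPKM for Psmb8 and 18 FPKM for Psmb10, with Psmb9 between them. Assembly chaperones lay between 17.9 FPKM for Psmd9 and 62.1 FPKM for Psmg2.

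Summed over all members, the level was 6613 ± 56.1 FPKM in 8276OV, against 5489 ± 25.4 FPKM in 5NC (SD, n = 3 each). It was 6478 ± 58.8 FPKM in 8276KD, against 6326 ± 40.8 FPKM in 3NC. As a share of each library's column total, the members held 1.19% ± 0.0120 in 8276OV, 1.02% ± 0.00574 in 5NC, 1.18% ± 0.0101 in 8276KD and 1.14% ± 0.00759 in 3NC. The 5NC libraries were therefore the lowest of the 4 groups, and the other 3 groups lay closer to each other. In bulk RNA, fewer cells of a type and less RNA per cell cannot be told apart.

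**Figure D1:**
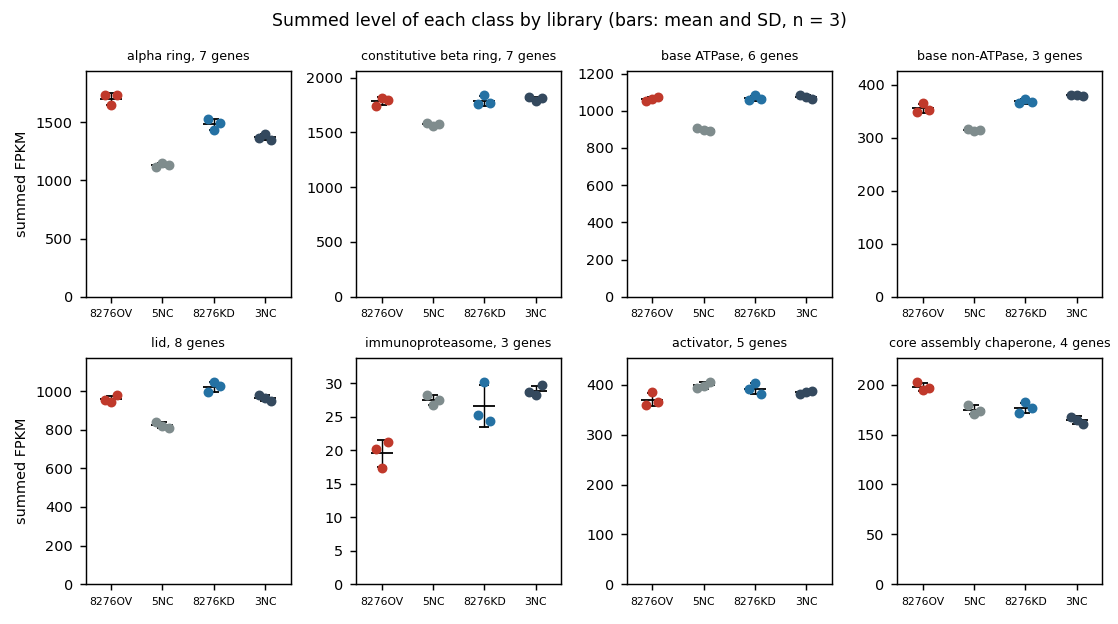
Summed FPKM (vertical axis, from 0) of each class of proteasome genes in each library, with the groups 8276OV, 5NC, 8276KD and 3NC along the horizontal axis; points are libraries and bars the mean and SD of 3. The 5NC libraries lie lowest in the alpha ring, beta ring, base and lid panels, and the 8276OV libraries lie lowest in the immunoproteasome panel, at 17.3 to 21.3 FPKM.

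Comparing 8276OV with 5NC asks which of these genes differ when lncRNA8276 is overexpressed. Most of the constitutive machinery was higher in 8276OV, led by the alpha ring, and the immunoproteasome genes and a few GC-rich subunits were lower. Of the 48 tested members, 27 were higher and 14 lower by limma's moderated test with an adjusted p under 0.05, with a median log2 fold change of 0.18. Among all 11360 genes tested, 30.3% were higher and 44.1% lower, and their median was -0.09. After GC correction 32 members were higher and 7 lower, where 27.8% of all genes were higher and 27% lower. With median-of-ratios scaling, which moved the median of all genes by 0.084, 30 members were higher and 9 lower. The share of all genes called with that scaling is not given here. Quantile normalization moved the median of all genes by 0.117 and their split to 4428 higher and 3997 lower, and left the members at 27 and 15.

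The largest changes of this comparison were those of Psma4, Psmd12 and Psmb8. Their upstream sequence is shown because the members' promoters were searched for elements that are known to control proteasome and immunoproteasome genes. The bases shown end at the RefSeq start of each gene (GRCm38.p6, plus strand), at chr9:54950609-54950780 for Psma4, chr11:107479278-107479527 for Psmd12 and chr17:34197945-34198194 for Psmb8. Capitals mark a match to the core of the antioxidant response element.
Psma4: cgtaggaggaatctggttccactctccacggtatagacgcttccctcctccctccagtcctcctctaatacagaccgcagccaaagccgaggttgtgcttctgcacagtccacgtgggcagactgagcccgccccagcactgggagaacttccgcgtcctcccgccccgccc
Psmd12: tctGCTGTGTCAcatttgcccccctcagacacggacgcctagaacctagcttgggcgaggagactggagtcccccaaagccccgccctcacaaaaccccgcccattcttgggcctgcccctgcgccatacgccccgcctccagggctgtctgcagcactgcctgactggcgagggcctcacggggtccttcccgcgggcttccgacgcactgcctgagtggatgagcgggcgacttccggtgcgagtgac
Psmb8: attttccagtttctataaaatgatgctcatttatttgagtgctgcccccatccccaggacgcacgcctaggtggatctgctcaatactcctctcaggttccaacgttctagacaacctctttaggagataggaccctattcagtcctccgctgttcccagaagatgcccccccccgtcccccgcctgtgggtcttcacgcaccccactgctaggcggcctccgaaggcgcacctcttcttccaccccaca
Windows of 300 bases, from 250 before to 50 after the start in RefSeq's promoter table, were searched on both strands. For Psma4 that start lies after the start of the gene, so only the 172 bases of the window before the gene are shown. The antioxidant element core TGACNNNGC, which NRF1 and NRF2 are known to bind with small MAF proteins, matched once in Psmd12, on the reverse strand with its first base at -247, and not in Psma4 or Psmb8. It was in 13.3% of 45 promoters of 42 members and in 12.4% of all 32851 RefSeq promoters. The CCAAT box was in 33.3% of member promoters and 37.4% of all. The interferon response element core, which interferon regulatory factors are known to bind, was in 11.1% of member promoters and 3.44% of all, namely in 5 genes, Psmd4, Psmd9, Psmb3, Psmg4 and Psme1. The letters of these motifs may overlap each other, and a match is a description of the sequence only.

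In the alpha ring all 7 genes were higher in 8276OV. Psma4 (chromosome 9, 54950781 to 54958034 in GRCm38.p6) had 285, 270.0 and 295 FPKM in 8276OV libraries, against 164, 169.6 and 166 FPKM in 5NC libraries. The lowest 8276OV library lay far above the highest 5NC library. Psma4 was 0.76 higher on the log2 scale (SE 0.0423, adjusted p = 3.96e-08). Psma1 had 183, 169 and 177 FPKM in 8276OV, against 111, 111 and 106 FPKM in 5NC, and was 0.68 higher (SE 0.0463, adjusted p = 1.22e-07). Psma6 had 255, 238 and 264 FPKM in 8276OV, against 154, 160.2 and 159.8 FPKM in 5NC, and was 0.67 higher. The groups did not overlap for any alpha gene. Psma3 had 228, 217 and 223 FPKM in 8276OV, against 134, 144 and 148 FPKM in 5NC. Psma5 had 189, 174 and 184 FPKM in 8276OV, against 114, 115 and 113 FPKM in 5NC. Psma2, Psma3 and Psma5 were 0.66, 0.65 and 0.67 higher. Psma7, the most abundant and the most GC-rich alpha gene at 57.4% GC, was higher by only 0.25 as deposited (355 ± 6.96 FPKM in 8276OV, 297.6 ± 4.41 FPKM in 5NC) but by 0.81 after GC correction.

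GC correction narrowed some alpha differences and widened others, and kept all 7 calls, with fold changes from 0.30 for Psma2 to 0.81 for Psma7. The summed alpha ring was 1702 ± 51.5 FPKM in 8276OV and 1133 ± 15.6 FPKM in 5NC. It was 1370.4 ± 24.6 FPKM in 3NC, the other control group. Against 3NC, 6 of the 7 alpha genes were higher in 8276OV and Psma7 was not called, with a median difference of 0.33. Against 3NC after GC correction, 4 of 7 were higher.

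**Figure D2:**
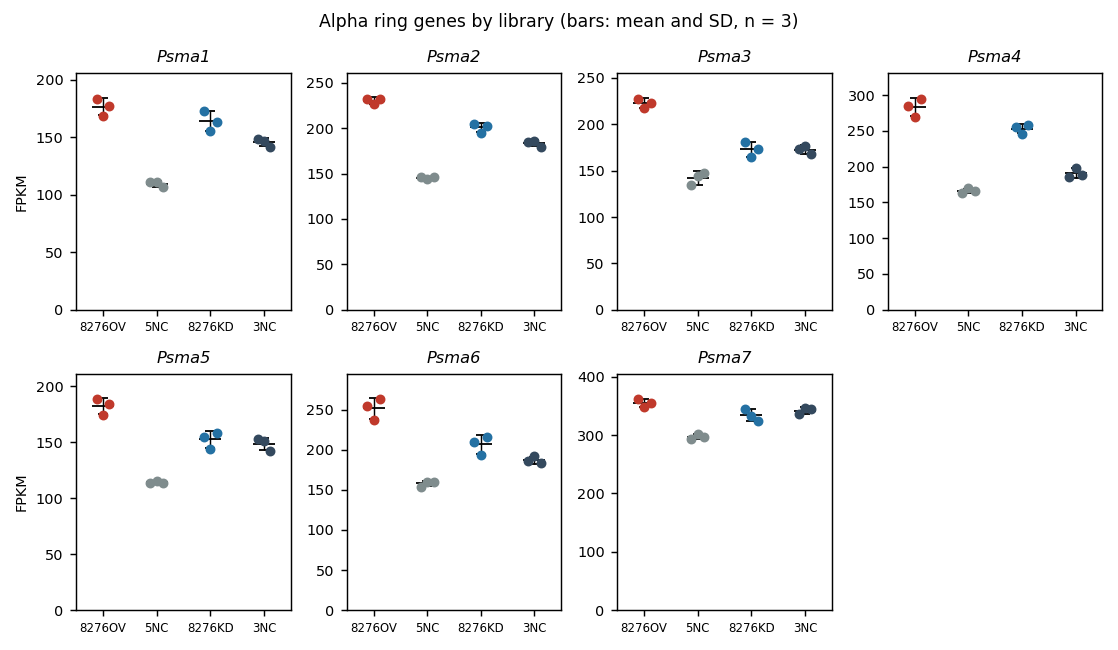
FPKM (vertical axis, from 0) of the 7 alpha ring genes in each library, with 8276OV, 5NC, 8276KD and 3NC along the horizontal axis; points are libraries and bars the mean and SD of 3. In every panel the 3 libraries of 8276OV lie above the 3 of 5NC, as for Psma4 at 270.0 to 295 FPKM in 8276OV and 164 to 169.6 FPKM in 5NC, and for Psma4 the 8276KD libraries also lie above those of 3NC.

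The constitutive beta ring was divided. Psmb1, Psmb2 and Psmb7 were higher in 8276OV, Psmb5 was lower, and Psmb3, Psmb4 and Psmb6 were not called as deposited. Psmb7, which carries the trypsin-like activity, had 379, 382 and 402 FPKM in 8276OV, against 237, 257 and 261 FPKM in 5NC (log2 fold change 0.62, SE 0.0451, adjusted p = 1.86e-07). Psmb5, which carries the chymotrypsin-like activity, had 129.5, 149.9 and 140.1 FPKM in 8276OV, against 208, 205 and 213 FPKM in 5NC (log2 fold change -0.57, SE 0.0638, adjusted p = 3.63e-06). For both genes the groups did not overlap, and they differed in opposite directions. Psmb6, the caspase-like subunit, had 171, 183 and 178 FPKM in 8276OV, against 189, 185 and 193 FPKM in 5NC (log2 fold change -0.09, adjusted p = 0.0808).

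Psmb7 has the lowest transcript GC of the class, 40.8%, and Psmb5 the highest, 56.6%. After GC correction 6 of the 7 beta genes were higher, Psmb7 by 0.29 and Psmb6 by 0.10, and Psmb5 was not called (-0.06, adjusted p = 0.149). Against 3NC, 3 were higher and 4 lower as deposited. RefSeq lists pseudogenes of Psma5, Psmb5, Psmb6 and Psmb7, and how the deposited values treat reads shared with them is not given in the sources used here.

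The immunoproteasome genes were all lower in 8276OV, and the level of Psmb8 rests on few fragments. Psmb8 (chromosome 17, 34198195 to 34201454), the counterpart of Psmb5, had 1.03, 0.41 and 0.84 FPKM in 8276OV, against 2.42, 1.43 and 1.70 FPKM in 5NC, with no overlap. These values correspond to about 25, 10 and 19 fragments in 8276OV and 56, 35 and 42 in 5NC. Psmb8 fell by 0.70 on the log2 scale (SE 0.167, adjusted p = 0.00182), and the call held after GC correction (-0.44, adjusted p = 0.0404). Psmb9, the counterpart of Psmb6, had 3.55, 2.29 and 3.37 FPKM in 8276OV, against 3.75, 5.65 and 4.65 FPKM in 5NC (log2 fold change -0.48, SE 0.130, adjusted p = 0.00422). Psmb10, the counterpart of Psmb7, had 15.6, 14.6 and 17.1 FPKM in 8276OV, against 22.1, 19.6 and 21.2 FPKM in 5NC (log2 fold change -0.39, SE 0.104, adjusted p = 0.00356). After GC correction neither Psmb9 (-0.12, adjusted p = 0.518) nor Psmb10 (0.12, adjusted p = 0.307) was called.

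Against 3NC all 3 immunoproteasome genes were lower in 8276OV, Psmb9 the most, by 1.17 on the log2 scale (adjusted p = 2.61e-06), since Psmb9 had 8.85, 8.05 and 7.36 FPKM in 3NC. Set against its constitutive counterpart, Psmb10 was at 4.06% ± 0.216 of Psmb7 in 8276OV and 8.37% ± 0.868 in 5NC (SD, n = 3). That ratio was 5.39% ± 1.18 in 8276KD and 5.74% ± 0.424 in 3NC. These ratios are not corrected for GC, and transcript GC is 56.5% for Psmb10 and 40.8% for Psmb7. After GC correction the log2 fold change of 8276OV against 5NC was 0.12 for Psmb10, which was not called, and 0.29 for Psmb7. Psmb9 was at 1.74% ± 0.431 of Psmb6 in 8276OV and 2.48% ± 0.539 in 5NC. Psmb8 was at 0.556% ± 0.264 of Psmb5 in 8276OV and 0.888% ± 0.246 in 5NC, so the libraries overlapped for that ratio and for the Psmb9 ratio. Leukocytes are known to make immunoproteasomes constitutively. Of 11 leukocyte markers in the table, 10 stayed below 1 FPKM in all libraries, Cd3e was at 0 everywhere, and their summed level was 1.71 to 2.53 FPKM in 8276OV, 2.51 to 2.76 FPKM in 5NC, 2.90 to 3.91 FPKM in 8276KD and 4.29 to 6.21 FPKM in 3NC. Cd68 alone reached 1 FPKM and held most of these sums, at 1.52 to 2.01 FPKM in 8276OV and 4.11 to 5.61 FPKM in 3NC. Ptprc stayed at or below 0.03 FPKM in every library. The part of leukocytes in the immunoproteasome result was not tested.

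**Figure D3:**
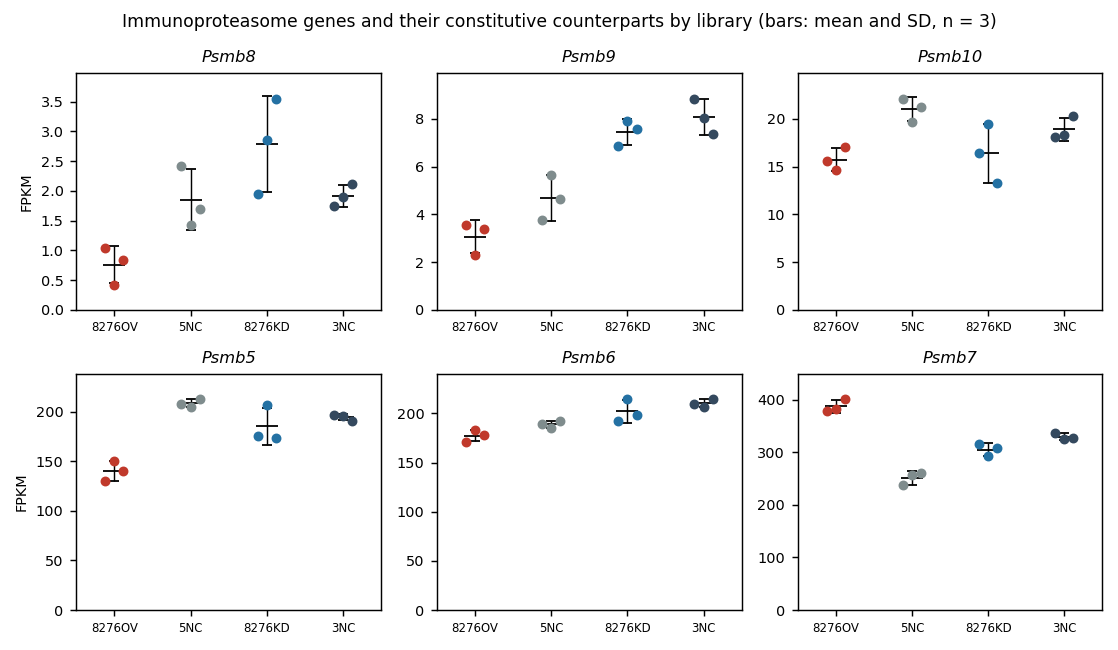
FPKM (vertical axis, from 0) of the immunoproteasome genes Psmb8, Psmb9 and Psmb10 (upper row) and of their constitutive counterparts Psmb5, Psmb6 and Psmb7 (lower row) in each library, with 8276OV, 5NC, 8276KD and 3NC along the horizontal axis; points are libraries and bars the mean and SD of 3. By group mean, Psmb8, Psmb9, Psmb10, Psmb5 and Psmb6 are lowest in 8276OV, while Psmb7 is highest there, at 379 to 402 FPKM.

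In the base, 6 of 9 genes were higher in 8276OV and 3 lower. Psmc6, an ATPase of the ring, had 303, 259.7 and 298 FPKM in 8276OV, against 203, 198 and 193 FPKM in 5NC (log2 fold change 0.53, SE 0.0622, adjusted p = 5.65e-06). After GC correction, with a transcript GC of 37.0%, the Psmc6 difference was 0.13 (adjusted p = 0.00368). Psmc5, another ATPase, averaged 243 ± 11.2 FPKM in 8276OV and 176 ± 2.18 FPKM in 5NC and was 0.46 higher (0.68 after GC correction). Psmd1, the large scaffold of the base, had 98.1, 99.2 and 96.1 FPKM in 8276OV, against 67.5, 65.9 and 67.6 FPKM in 5NC (log2 fold change 0.54, SE 0.0368, adjusted p = 1.24e-07). Psmc3, Psmc4 and the ubiquitin receptor Psmd4 were lower by 0.17, 0.20 and 0.13, and the Psmd4 call was lost in 3 of 6 fits without one library. After GC correction no base gene was lower and 7 of 9 were higher, Psmc3 and Psmd4 among them. Against 3NC as deposited the base read the other way, with 2 genes higher and 6 lower in 8276OV. Psmc5, Psmc1 and Psmd2 changed direction with a call. Against 3NC after GC correction, Psmc1 (-0.085) and Psmc4 (-0.15) were lower, and no other base gene was called.

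In the lid, 4 of 8 genes were higher and 2 lower. Psmd12, a subunit of the lid (chromosome 11, 107479528 to 107498036), had 189, 173 and 187 FPKM in 8276OV, against 114, 107 and 105 FPKM in 5NC (log2 fold change 0.74, SE 0.0472, adjusted p = 7.54e-08; 0.70 after GC correction). Psmd14, the deubiquitinase of the lid, averaged 159 ± 8.78 FPKM in 8276OV and 108 ± 2.04 FPKM in 5NC and was 0.55 higher (0.29 after GC correction). Psmd6 was 0.62 higher and Psmd7 0.24 higher. Psmd3 had 57.1, 72.6 and 67.0 FPKM in 8276OV, against 104, 95.4 and 99.0 FPKM in 5NC (log2 fold change -0.60, SE 0.0881, adjusted p = 3.54e-05). Psmd8 fell by 0.50. The groups did not overlap for any of the 6 lid genes called. Psmd3 (-0.16) and Psmd8 (-0.23) stayed called after GC correction, and Psmd11, not called as deposited, was then lower by 0.33. Against 3NC, Psmd12 was higher by 0.18, against 0.74 when set against 5NC, and 4 lid genes were higher and 4 lower.

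Among regulators, Psme1, a subunit of the interferon-inducible 11S activator, had 93.6, 106 and 100.1 FPKM in 8276OV, against 126, 126 and 131 FPKM in 5NC. It fell by 0.35 (SE 0.0590, adjusted p = 0.000103) but was 0.14 higher after GC correction. Psme2, its partner subunit, averaged 145 ± 7.46 FPKM in 8276OV and 143 ± 1.09 FPKM in 5NC and was not called. After GC correction Psme2 was 0.30 higher (adjusted p = 9.27e-07). Psme4, the activator PA200 known for its role in spermatogenesis, was 0.30 higher, and 0.07 higher with no call after GC correction. Psmf1, which encodes the inhibitor PI31, had 17.4, 19.7 and 20.3 FPKM in 8276OV, against 24.6, 22.5 and 22.3 FPKM in 5NC, and fell by 0.26 (SE 0.0834, adjusted p = 0.0113). The Psmf1 call was lost without 5NC replicate 1 (-0.22, adjusted p = 0.0518) and without 8276OV replicate 1 (-0.20, adjusted p = 0.0554). Psme2b, a near copy of Psme2 that may share reads with it, was not called.

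Assembly chaperones also differed in both directions. The core chaperone Psmg2 had 74.7, 69.6 and 77.4 FPKM in 8276OV, against 59.8, 52.8 and 56.8 FPKM in 5NC (log2 fold change 0.38, SE 0.0583, adjusted p = 5.01e-05). Psmg1, its partner, was 0.34 higher, Psmg4 was 0.14 higher with libraries that overlapped and a call lost in 5 of 6 fits without one library, and Psmg3 fell by 0.31. The base chaperone Psmd10, known as gankyrin, had 46.3, 44.0 and 43.7 FPKM in 8276OV, against 27.1, 29.4 and 29.7 FPKM in 5NC (log2 fold change 0.62, SE 0.0526, adjusted p = 5.06e-07). Another base chaperone, Psmd9, had 13.1, 15.97 and 14.2 FPKM in 8276OV, against 23.4, 23.3 and 21.3 FPKM in 5NC (log2 fold change -0.62, SE 0.0785, adjusted p = 1.07e-05). Both Psmd10 (0.33) and Psmd9 (-0.48) kept their calls after GC correction. Psmc3ip, the recombination factor, had 43.6, 41.6 and 46.9 FPKM in 8276OV, against 40.0, 39.0 and 37.6 FPKM in 5NC, and was 0.17 higher, a call lost without 8276OV replicate 3 (adjusted p = 0.0628). The call of the base chaperone Psmd5 (0.24) was lost without 5NC replicate 3 (adjusted p = 0.0521).

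Across the members, the fold change of 8276OV against 5NC fell with transcript GC content (Spearman's rho -0.705 over 48 genes, which share the libraries). Over all 11197 genes with a GC value, rho was -0.789. Of the 24 members below the members' median GC of 49.75%, 20 were higher and 1 lower. Of the 24 at or above it, 7 were higher and 13 lower. After GC correction rho over the members was -0.137. Of the 27 members that were higher as deposited, 24 were also higher after correction, while Psme4, Psmc2 and Psmd5 were not called. Of the 14 lower ones, 6 were also lower, 5 were not called, and Psmd4, Psme1 and Psmc3 were higher.

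**Figure D4:**
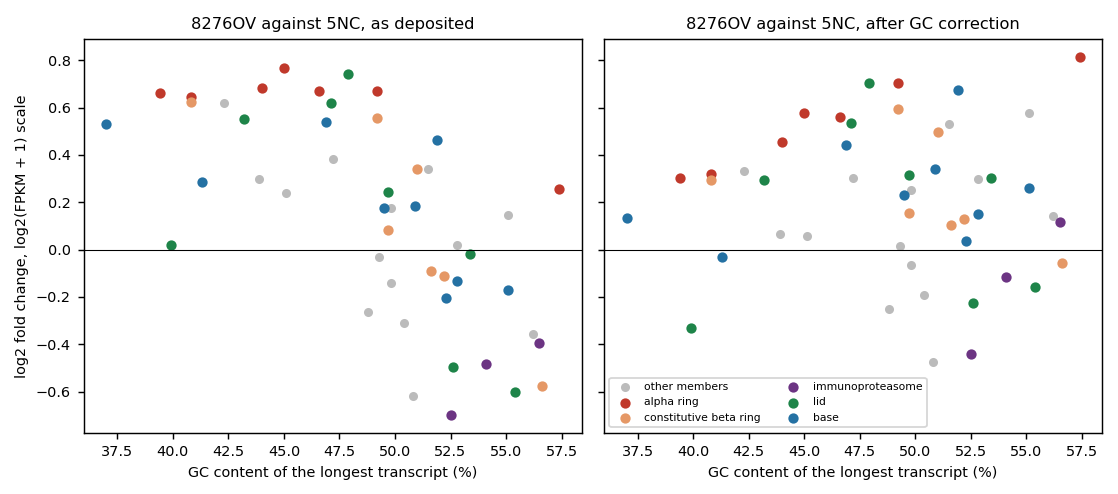
Log2 fold change of 8276OV against 5NC (vertical axis, log2(FPKM + 1) scale) against the GC content in percent of the longest transcript (horizontal axis) for the 48 tested members, as deposited on the left and after GC correction on the right; points are genes coloured by class. On the left the points descend from about 0.6 at low GC to below 0 at high GC (rho -0.705), and on the right the trend is mostly gone (rho -0.137) while the alpha ring genes lie at 0.30 to 0.81.

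Higher and lower members were equal in number against the other control group. Set against 3NC, 20 members were called higher and 20 lower (median log2 fold change 0.02), where 33.5% of all genes were higher and 41.7% lower. Of the 27 members higher against 5NC, 19 were also higher against 3NC, 5 were not called and 3 were lower. Of the 14 lower ones, 12 were also lower against 3NC, all 3 immunoproteasome genes among them.

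Comparing 8276KD with 3NC asks what differs when lncRNA8276 is inhibited. Few proteasome genes differed, and by less than in the overexpression arm. Of 48 members, 9 were called higher and 2 lower (median log2 fold change 0.01), where 20% of all genes were higher and 19.5% lower. The share of members called higher was near the background, and 37 members were not called. After GC correction 11 were higher and 3 lower, where 25.3% of all genes were higher and 23.1% lower. Of the 9 higher genes, 4 are in the alpha ring and 3 in the lid, beside Psmb2 and Psmg2.

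Psma4 showed the largest difference again. It had 255, 246 and 258 FPKM in 8276KD, against 186, 199 and 189 FPKM in 3NC, with no overlap (log2 fold change 0.40, SE 0.0423, adjusted p = 9.46e-06; 0.37 after GC correction). Psmg2, the core chaperone, had 63.8, 63.6 and 63.4 FPKM in 8276KD, against 57.7, 54.4 and 50.7 FPKM in 3NC (log2 fold change 0.23, SE 0.0583, adjusted p = 0.00765). Among lid genes, Psmd7 had 192, 208 and 199 FPKM in 8276KD, against 173, 171 and 169 FPKM in 3NC (log2 fold change 0.22, SE 0.0380, adjusted p = 0.000500). Psmd14, the lid deubiquitinase, had 138, 131 and 137 FPKM in 8276KD, against 120.0, 119.8 and 111 FPKM in 3NC (log2 fold change 0.21, SE 0.0476, adjusted p = 0.00352). In each of these genes every 8276KD library exceeded every 3NC library, which was a condition for naming them among the largest rises. Psma1, Psma2, Psma6, Psmb2 and Psmd6 were higher by 0.13 to 0.17. Of these calls, leaving out one library ended those of Psma6 and Psmd6 in 4 of 6 fits each and that of Psma1 in 2 of 6.

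The 2 lower members were Psmd2, the other scaffold of the base, and Psmd11 of the lid. Psmd2 had 159, 154 and 156 FPKM in 8276KD, against 172, 172 and 172 FPKM in 3NC (log2 fold change -0.14, SE 0.0369, adjusted p = 0.00942). Psmd11 had 90.7, 95.7 and 93.3 FPKM in 8276KD, against 103, 101 and 99.7 FPKM in 3NC (log2 fold change -0.12, SE 0.0371, adjusted p = 0.0223). The libraries did not overlap for either gene, and the Psmd11 call was lost in 4 of 6 fits that each left out a library (adjusted p 0.0552 to 0.0824). Against 5NC both were higher in 8276KD, by 0.16 and 0.10.

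The immunoproteasome genes were not called in 8276KD. Psmb8 had 1.95, 2.85 and 3.55 FPKM in 8276KD, against 1.75, 1.89 and 2.11 FPKM in 3NC (log2 fold change 0.35, SE 0.167, adjusted p = 0.108). Psmb9 had 6.87, 7.93 and 7.58 FPKM in 8276KD, against 8.85, 8.05 and 7.36 FPKM in 3NC (adjusted p = 0.564). Psmb10 had 16.4, 19.4 and 13.3 FPKM in 8276KD, against 18.1, 18.3 and 20.3 FPKM in 3NC (adjusted p = 0.127). The groups overlapped for all 3. Of their counterparts, Psmb5 had 175, 206 and 173 FPKM in 8276KD, against 197, 196 and 191 FPKM in 3NC, and Psmb6 had 193, 215 and 199 FPKM in 8276KD, against 209, 207 and 215 FPKM in 3NC. The libraries overlapped for both, and neither was called. Psmb7 had 315, 292 and 309 FPKM in 8276KD, against 337, 324 and 327 FPKM in 3NC, with no overlap. It was not called as deposited (-0.11, adjusted p = 0.0682) and was lower after GC correction (-0.17, adjusted p = 0.00523).

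The members called in the knockdown arm depended on scaling and control. Quantile normalization moved the median of all genes by 0.01 and gave 4 members higher and 8 lower. Psma4, Psmg2, Psmd7 and Psmd14 were kept among the higher, and Psma1, Psma2, Psma6, Psmb2 and Psmd6 were lost. Against 5NC, 28 members were higher and 5 lower, where 24.7% of all genes were higher and 30.5% lower. Without 8276KD replicate 2, which differed from its group in GC slope, 10 members were higher and 5 lower. Leaving out other libraries gave 6 to 9 higher and 1 or 2 lower. The shares of all genes called with quantile normalization or without a library are not given here. Whether these shifts are particular to the members was not tested.

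The overexpression and knockdown arms share no library. All 9 members that were higher in 8276KD against 3NC were also higher in 8276OV against 5NC, which is 100% of the knockdown list and 33.3% of the 27 genes of the overexpression arm. Over all genes tested, 1062 were higher in both arms, which is 46.9% of the 2267 higher in 8276KD and 30.8% of the 3447 higher in 8276OV. The 9 members higher in both arms were Psma1, Psma2, Psma4, Psma6, Psmb2, Psmd6, Psmd7, Psmd14 and Psmg2. No member was lower in both arms, with 14 lower in 8276OV and only 2 in 8276KD. Over all genes tested, 1251 were lower in both arms, which is 56.6% of the 2210 lower in 8276KD and 25% of the 5005 lower in 8276OV. Psma4 led both, at 0.76 in 8276OV and 0.40 in 8276KD.

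The difference between the 2 effects, 8276OV against 5NC less 8276KD against 3NC, was tested in the same fit. It was positive for 24 members and negative for 8, where 24.5% of all genes were positive and 36.2% negative. All 7 alpha ring genes had a positive difference, from 0.29 for Psma7 to 0.64 for Psma3, and all 7 kept the call after GC correction, which left 28 members positive and 4 negative (24.9% and 24.4% of all genes). The largest positive difference was that of Psmb7 (0.73, SE 0.0638, adjusted p = 2.19e-06), and the largest negative one that of Psmb8 (-1.05, SE 0.236, adjusted p = 0.00185). The controls were also exchanged, so that 8276OV was set against 3NC and 8276KD against 5NC. Then 6 members were positive and 26 negative, where 30.6% of all genes were positive and 33.8% negative. No alpha ring gene was called positive with the controls exchanged. Psma1 (-0.30) and Psma2 (-0.13) were negative, and the other alpha genes were not called. Psmb7 was not called either (-0.046, adjusted p = 0.543), while Psmb8 stayed negative (-1.14).

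The 2 control groups themselves differed in these genes. In 5NC against 3NC, 28 members were called lower and 3 higher (median log2 fold change -0.17), where 25.9% of all genes were lower and 30.6% higher (median 0.02). All 7 alpha ring genes, 5 of 7 constitutive beta genes, 7 of 9 base genes and 5 of 8 lid genes were lower in 5NC, and none of these was higher. Leaving out one library ended the calls of Psmc4 and Psmd8 in 5 of 6 fits each, that of Psmc6 in 4, and those of Psmc3 and Psmd5 in 1 each. After GC correction 34 members were lower and 3 higher, with all 8 lid genes lower, where 33.3% of all genes were lower and 31.2% higher. The 31 calls as deposited were all kept after GC correction, median-of-ratios scaling and quantile normalization.

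Psmc5, an ATPase of the base, had 178, 177 and 174 FPKM in 5NC, against 261, 264 and 267 FPKM in 3NC (log2 fold change -0.58, SE 0.0446, adjusted p = 1.46e-07). Psmd12 of the lid had 114, 107 and 105 FPKM in 5NC, against 163, 164 and 157 FPKM in 3NC (log2 fold change -0.56, SE 0.0472, adjusted p = 3.25e-07). The groups lay far apart for both genes. Psmd1, the base scaffold, had 67.5, 65.9 and 67.6 FPKM in 5NC, against 95.8, 92.6 and 92.1 FPKM in 3NC, and fell by 0.47. The immunoproteasome gene Psmb9 had 3.75, 5.65 and 4.65 FPKM in 5NC, against 8.85, 8.05 and 7.36 FPKM in 3NC. Psmb9 fell by 0.69 (SE 0.130, adjusted p = 0.000538), and its constitutive counterpart Psmb6 fell by 0.15. Psmb8 and Psmb10 were not called. The 3 higher members were Psme2b (0.60), Psmd9 (0.34) and Psme1 (0.22), none of them a constitutive subunit. Psme2b had 5.83, 5.49 and 4.87 FPKM in 5NC, against 3.34, 3.10 and 3.22 FPKM in 3NC. Psmd9 had 23.4, 23.3 and 21.3 FPKM in 5NC, against 17.3, 17.8 and 17.8 FPKM in 3NC. Psme1 had 126, 126 and 131 FPKM in 5NC, against 107, 110.1 and 111 FPKM in 3NC, so the groups did not overlap for any of the 3.

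This comparison and that of 8276OV with 5NC share the 5NC libraries, so a low value in 5NC enters both with opposite sign. The values of Psmd12 side by side were 183 ± 8.84 FPKM in 8276OV, 109 ± 4.62 FPKM in 5NC, 169 ± 6.37 FPKM in 8276KD and 161 ± 3.67 FPKM in 3NC. Those of Psmc5 were 243 ± 11.2, 176 ± 2.18, 261 ± 14.2 and 264 ± 2.90 FPKM in the same order of groups, and those of Psma4 were 283 ± 12.6, 166 ± 3.06, 253 ± 6.28 and 191 ± 6.73 FPKM. For Psmc5 the 3 groups other than 5NC were close to each other, while for Psma4 both 8276OV and 8276KD lay above both controls.

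**Figure D5:**
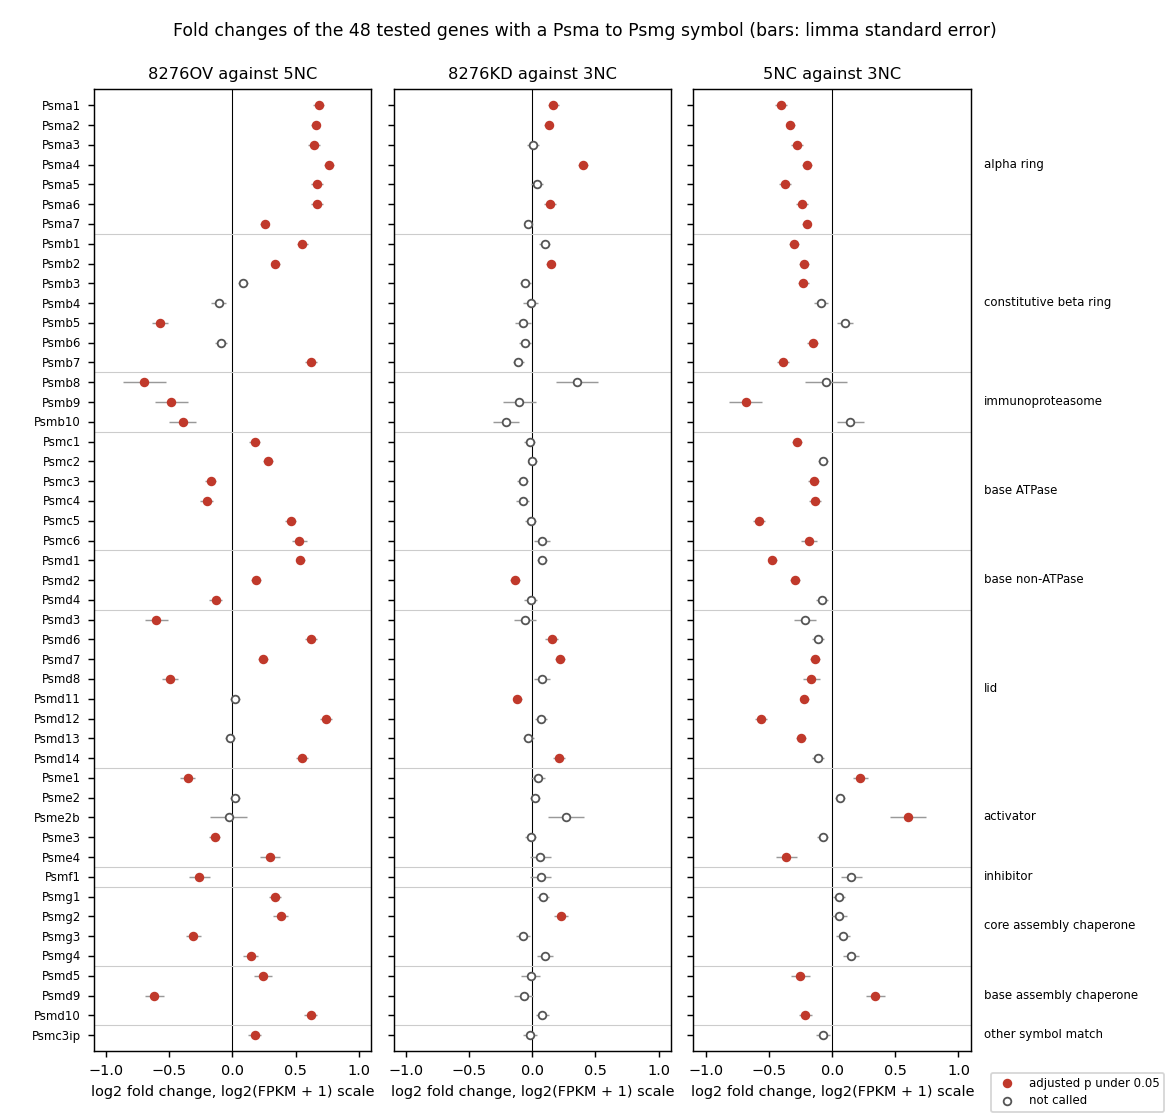
Log2 fold change (horizontal axis, log2(FPKM + 1) scale) of the 48 tested members, listed by class down the page, for 8276OV against 5NC, 8276KD against 3NC and 5NC against 3NC; bars are limma standard errors and filled points have an adjusted p under 0.05. The alpha ring genes lie at 0.25 to 0.76 in the first panel, -0.03 to 0.40 in the second and -0.41 to -0.20 in the third.

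Genes that act with the proteasome were followed from lists of other proteasome parts, of the NRF factors that control proteasome genes, of ubiquitin supply and delivery, and of antigen presentation. Of 9 other proteasome parts, 5 were higher and 3 lower in 8276OV against 5NC, and 2 were higher and 3 lower in 8276KD against 3NC. The shares of all genes to set beside this and the next lists are 30.3% higher and 44.1% lower in 8276OV (27.8% and 27% after GC correction), and 20% higher and 19.5% lower in 8276KD. Pomp, the chaperone that matures the core, had 338, 331 and 342 FPKM in 8276OV, against 183, 184 and 205 FPKM in 5NC, with no overlap. It was 0.82 higher (SE 0.0511, adjusted p = 7.23e-08) and 0.86 higher after GC correction, and was 0.29 higher in 8276KD against 3NC. Sem1, a small lid subunit, was 0.62 higher, and Usp14, a deubiquitinase bound to the base, was 0.65 higher. Adrm1, a ubiquitin receptor of the base, fell by 0.86 in 8276OV (67.7 ± 9.67 FPKM, against 123 ± 6.06 FPKM in 5NC) and by 0.30 in 8276KD.

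Among genes of NRF regulation, in 8276OV against 5NC 2 of 8 were higher and 6 lower as deposited, while after GC correction 2 were higher and 1 lower. Nfe2l1, which encodes the NRF1 factor that induces proteasome genes when proteasome activity falls, had 90.8, 103 and 96.4 FPKM in 8276OV, against 127, 131 and 133 FPKM in 5NC. It fell by 0.43 (adjusted p = 6.74e-06) and was not called after GC correction (-0.04, adjusted p = 0.343) or against 3NC (0.01, adjusted p = 0.857). Keap1, the adaptor that marks NRF2 for degradation, fell by 0.51, and Mafk, a partner of both factors, fell by 0.44, and neither was called after GC correction. In 8276KD against 3NC, 3 of 8 were higher and 3 lower, and Maff, another partner, fell by 0.59 (22.4 ± 0.815 FPKM in 8276KD, 34.3 ± 1.497 FPKM in 3NC).

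Of 16 genes of ubiquitin supply and delivery, 4 were higher and 10 lower in 8276OV, and 2 were higher and 5 lower in 8276KD. After GC correction 5 were higher and 5 lower in 8276OV. Rps27a, which encodes ubiquitin fused to a ribosomal protein, was 0.67 higher in 8276OV (2914 ± 18.8 FPKM, against 1829 ± 44.6 FPKM in 5NC). Rps27a kept its call after GC correction (0.44). Vcp, the segregase that pulls substrates from complexes, was 0.28 higher in 8276OV against 5NC and lower against 3NC (log2 fold change -0.185).

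Of 17 genes of antigen presentation and interferon response, 6 were higher and 8 lower in 8276OV, and 3 were higher and 5 lower in 8276KD. After GC correction 7 were higher and 6 lower in 8276OV. The shares in 8276OV were near those of all genes as deposited. Tap2, which carries proteasome peptides into the endoplasmic reticulum, had 10.2, 11.7 and 10.6 FPKM in 8276OV, against 21.5, 19.8 and 17.99 FPKM in 5NC, and fell by 0.81 (-0.27 after GC correction, adjusted p = 0.000617). H2-D1, a class I heavy chain gene, fell by 0.61 in 8276OV, while B2m, the light chain of class I, was 0.47 higher. Their transcript GC content was 55.9% and 41.2%, and their differences after GC correction are not given here. Cxcl10, an interferon-induced chemokine, was 0.48 higher in 8276OV and fell by 0.77 in 8276KD.

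The genes outside the family with the most similar pattern over the 4 group means were Msn, Wdr61, Atrx, Trappc11 and Pin4. Their Pearson's r with the mean profile of the constitutive core was 0.9993 to 0.9998. These values rest on only 4 points and say little about any 1 gene, and 370 of the 11312 genes compared had an r over 0.95.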

How the data were processed

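The data are 12 RNA-seq libraries of C18-4 total RNA, 3 in each of 4 groups. The authors deposited one table of 17576 genes, taken here as FPKM because of how its values behave; its unit is not named, and TPM could not be told apart. The genome build named in the submitters' processing notes is mm10. Which aligner, quantifier and annotation were used, and how strand and shared reads were treated, is not given in the sources used here. The test used log2(FPKM + 1), with genes kept at 1 FPKM or more in at least 3 libraries, and limma 3.58.1 in R 4.3.3, in one fit of the 12 libraries with a mean per group, a mean-variance trend and robust moderation. P-values were adjusted by Benjamini-Hochberg over all 11360 genes, with a threshold of 0.05. Fold changes are on the log2(FPKM + 1) scale, which understates those of low genes such as Psmb8. An exact two-sided permutation test of 3 against 3 libraries cannot go below p = 0.1 and was not used. GC correction subtracted from each library a spline trend (natural, 5 degrees of freedom) on transcript GC, taken from the longest GENCODE M21 isoform of 11197 genes. Fragment numbers were implied by the steps of low values and cover counting error only. Values in every library are given for the immunoproteasome genes and their counterparts and for the largest change of each class. They are also given for the members with the largest rise or fall in each comparison. Those were taken among called members whose groups did not overlap, so their lack of overlap was a condition of naming them. Pathway genes were named by smallest p. Some genes this rule would name are not reported here. The members and lists were chosen with earlier results of these data known. Coordinates and promoters are those of RefSeq on GRCm38.p6. The scripts were tested on simulated data. Alternatives were another pseudocount, filters, scalings, control, GC correction, a replicate block and leaving out each library; the other control with GC correction was chosen after seeing the data.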

Additional observations from a re-analysis of the deposited data

Results flagged for a closer look

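In 32 members the effect of 8276OV against 5NC differed from that of 8276KD against 3NC, by limma's test of the difference itself with an adjusted p under 0.05; values below are that difference on the log2 scale. In the alpha ring it was 0.29 for Psma7, 0.36 for Psma4, 0.52 for Psma1, 0.53 for Psma2 and Psma6, 0.63 for Psma5 and 0.64 for Psma3. Among catalytic and other beta genes it was 0.73 for Psmb7, 0.46 for Psmb1, 0.20 for Psmb2, -0.50 for Psmb5 and -1.05 for Psmb8, whose level rests on few fragments.

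In the base it was 0.20 for Psmc1, 0.28 for Psmc2, 0.45 for Psmc6, 0.48 for Psmc5, 0.32 for Psmd2 and 0.46 for Psmd1. Lid genes gave 0.68 for Psmd12, 0.47 for Psmd6, 0.34 for Psmd14, 0.14 for Psmd11, -0.55 for Psmd3 and -0.57 for Psmd8. Regulators and chaperones gave -0.40 for Psme1, -0.33 for Psmf1, 0.26 for Psmg1, -0.24 for Psmg3, 0.54 for Psmd10, 0.25 for Psmd5 and -0.55 for Psmd9. Psmc3ip, which is no proteasome gene, had 0.19. In 12 fits that each left out a library, the call of Psmc3ip was lost in 8 and that of Psmf1 in 3.

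The difference uses both control groups, and 28 members were lower in 5NC than in 3NC. Their part in it was not tested, but with the controls exchanged 6 members were positive and 26 negative.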

How the results depend on the processing

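Not every member was followed through the settings in every comparison. Among the values for single members that were followed, 1836 kept their direction and side of the threshold. Another 106 lost the call, 31 gained it and 62 changed sign. A sign change in a member called under neither setting is not counted among the 62. Members lower in 8276OV against 5NC numbered 9 with median-of-ratios factors and 7 with GC correction, with or without a replicate block, against 14 as reported. In 8276KD against 3NC, 11 members were called as reported, 33 against the other control and 37 against it with GC correction; 4 were higher with quantile normalization, 28 against the other control and 36 with GC correction added; 8, 5 and 1 were lower under these settings, and 1 when only the groups compared were fitted. Leaving out one library gave 8 to 15 called, 6 to 10 higher and 1 to 5 lower, with 15 called without 8276KD replicate 2. In 5NC against 3NC, 7 were higher when only the groups compared were fitted. For the difference of effects, 6 were higher against the other control and 8 with GC correction added; 4 were lower with GC correction, with or without the block, 26 against the other control and 31 with GC correction added. Leaving out one library gave 38 to 42 called in 8276OV against 5NC (25 to 27 higher, 12 to 16 lower), 27 to 31 in 5NC against 3NC and 29 to 33 for the difference.

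Among the values followed, signs changed as follows, on the log2 scale, and the cause was not tested. Sign changes outside that set are not listed, such as the difference for Psma1, 0.52 as reported and -0.30 against the other control. With GC correction, with or without the block, 8276OV against 5NC gave Psmb10 0.12, Psmb6 0.10, Psmc2 -0.031, Psmc3 0.26, Psmc4 0.037, Psmd4 0.15 and Psme1 0.14, and the difference gave Psmb6 0.15 and Psme1 0.027. Against the other control 8276OV gave Psmc1 -0.11, Psmc5 -0.12, Psmd2 -0.11, Psmd5 -0.012 and Psme4 -0.065, the difference gave Psma5 -0.12, Psmb7 -0.046, Psmc5 -0.68, Psmd1 -0.49, Psmd12 -0.45, Psmd9 0.13 and Psme1 0.046, and 8276KD gave Psmb7 0.28, Psmb9 0.59, Psmd11 0.10 and Psmd2 0.16. Against the other control with GC correction 8276OV gave Psma2 -0.017, Psmb10 0.20, Psmb7 -0.088, Psmc1 -0.085, Psmc2 -0.10, Psmc3 0.052, Psmc6 -0.024, Psmd1 -0.051, Psmd2 -0.003, Psmd4 0.012, Psmd5 -0.21, Psme1 0.30 and Psme4 -0.30. The difference then gave Psma3 -0.17, Psma5 -0.15, Psmb10 0.41, Psmb5 0.0093, Psmb7 -0.30, Psmc5 -0.59, Psmd1 -0.60, Psmd12 -0.53, Psmd9 0.18 and Psme1 0.34, and 8276KD gave Psmb6 0.16, Psmb7 0.21, Psmb9 0.69, Psmd11 0.028 and Psmd2 0.21.

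Same-numbered libraries showed no clear pairing in the pairs of groups checked. Correlations of their deviations from the group means ran from -0.183 to -0.0276 for 8276OV with 5NC. They ran from -0.181 to -0.00483 for 8276KD with 3NC and from 0.0413 to 0.0883 for 5NC with 3NC. Pairing of 8276OV with 8276KD was not tested. In both groups replicate 2 had the highest GC slope (-0.237 in 8276OV, 0.184 in 8276KD). With a replicate block, 26 members were higher and 14 lower in 8276OV, 9 and 2 in 8276KD, 3 and 27 in 5NC against 3NC, and 23 and 8 for the difference. Depth limits Psmb8, at 10 to 89 implied fragments per library.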
